A study of Mus musculus with 2 samples.

Results

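The liver cells described here were all cells in which Acod1, the gene of the enzyme that makes itaconate, was read at least 2 times and which carried few or no transcripts of Kupffer cells, B cells or T cells. They were found in 2 single-cell RNA libraries of liver non-parenchymal cells, from male C57BL/6 mice that were 8 weeks old and were fed for 6 weeks with a control diet or with a methionine and choline deficient diet. The second diet was used as the model of non-alcoholic steatohepatitis (NASH). Each diet was measured as 1 library from the pooled livers of 3 mice, so mice could not be told apart and no difference between diets could be tested. The diet deprives mice of nutrients needed for lipid export from the liver, and what is described as NASH here is that model.

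A cell was kept with at least 500 unique molecular identifiers (UMIs, counts of single RNA molecules) and 200 genes, which left 4209 of 4336 control and 3710 of 3893 NASH cells. The Acod1 cells had at least 2 Acod1 UMIs, at most 5 UMIs of Clec4f and Cd5l together, and 0 UMIs of Cd79a and Cd3e. This gave 148 of 7919 kept cells, 89 in the control library (2.11% of kept cells, exact binomial 95% interval 1.70 to 2.60) and 59 in the NASH library (1.59%, 1.21 to 2.05). These and all later intervals cover counting error only, not differences between mice. Intervals of levels and ratios count the UMIs of summed cells, so they leave out differences between cells too and do not measure the spread over cells. The order of the 2 shares depended on the Acod1 limit. With at least 1 UMI they were 4.13% and 2.80%, and with at least 3 UMIs they were 1.16% and 1.19%.

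Itaconate is made in mitochondria from an intermediate of the tricarboxylic acid cycle, and Acod1 is a classical gene of activated macrophages, monocytes and neutrophils that have sensed microbial products, interleukin-1 or interferons. Activated cells of these kinds also make interleukin-1 beta and chemokines such as Cxcl2, which attracts neutrophils. In the liver, neutrophils and monocytes enter from blood, whereas Kupffer cells are resident macrophages that line the sinusoids. The share of a cell kind among the cells loaded depends on how well each kind survives tissue digestion.

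The stretches upstream of 3 inducible genes that the results turn on and of the rule's gene Acod1 are shown to give the sequence context of genes induced in activated myeloid cells. They come from the 250 bases before the RefSeq start (GRCm38.p6, each written 5′ to 3′ on the strand of the gene). Where the first exon annotated in GENCODE begins earlier, they end at the base before it, which leaves 215 bases for Acod1 and 222 for Cxcl2. They lie at chr14:103046762-103046976 (+) for Acod1, chr2:129371140-129371389 (-) for Il1b, chr5:90903649-90903870 (+) for Cxcl2 and chr5:92348890-92349139 (-) for Cxcl10. Capitals mark matches, on either strand, to 4 patterns: GGG, any 5 bases and CC (bound by NF-kappaB), TGANTCA (AP-1), TTGCNNAA (C/EBP) and GAAA, any 2 bases and GAAA (the interferon-stimulated response element).
Acod1: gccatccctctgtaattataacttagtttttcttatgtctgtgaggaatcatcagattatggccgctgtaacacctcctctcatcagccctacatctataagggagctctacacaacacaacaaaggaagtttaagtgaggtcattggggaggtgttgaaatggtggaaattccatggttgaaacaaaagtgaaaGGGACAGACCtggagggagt
Il1b: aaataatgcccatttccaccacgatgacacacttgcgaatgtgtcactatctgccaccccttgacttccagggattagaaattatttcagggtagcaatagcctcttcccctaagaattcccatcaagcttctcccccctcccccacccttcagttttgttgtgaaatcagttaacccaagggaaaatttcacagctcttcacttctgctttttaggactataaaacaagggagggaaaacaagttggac
Cxcl2: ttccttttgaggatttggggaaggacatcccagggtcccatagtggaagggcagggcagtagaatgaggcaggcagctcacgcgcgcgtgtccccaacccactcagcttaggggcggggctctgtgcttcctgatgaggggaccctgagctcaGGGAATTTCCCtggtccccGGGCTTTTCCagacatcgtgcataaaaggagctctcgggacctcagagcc
Cxcl10: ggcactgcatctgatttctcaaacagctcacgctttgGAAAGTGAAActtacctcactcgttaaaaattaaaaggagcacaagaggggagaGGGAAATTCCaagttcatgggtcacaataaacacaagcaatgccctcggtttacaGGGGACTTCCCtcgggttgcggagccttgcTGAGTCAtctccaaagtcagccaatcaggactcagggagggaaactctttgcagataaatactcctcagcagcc

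Positions of matches count from the RefSeq start, which for Acod1 and Cxcl2 lies downstream of the end of the printed stretch. Cxcl10 held an NF-kappaB match 159 to 150 bases upstream of its start, overlapping matches of that pattern 104 to 94 bases upstream, an AP-1 match at 74 to 68 and an interferon-stimulated response element match at 213 to 204. Cxcl2 held NF-kappaB matches at 97 to 87 and 78 to 69 bases, the first read on both strands, and Acod1 held 1 at 55 to 46. Il1b held no match in this window. Windows of 250 bases before the start of 27025 RefSeq promoters held the NF-kappaB letters in 45.4%, the C/EBP letters in 9.55%, the AP-1 letters in 6.87% and the interferon-stimulated response element letters in 3.04%. A match is a run of letters and was not measured as a bound site.

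Acod1 itself, which chose the cells, is described without a test. Its gene lies at chr14:103046977-103056573 on the plus strand. The 89 control cells held 465 Acod1 UMIs, with a median of 3 and a range of 2 to 51 per cell, and the 59 NASH cells held 477, with a median of 4 and a range of 2 to 31. At least 10 Acod1 UMIs were found in 7 control and 17 NASH cells. Just inside the limit stood 40 control and 15 NASH cells with 2 UMIs, and just outside it 85 and 45 cells with 1 UMI that passed the other limits. Cells left out for Clec4f and Cd5l alone were 4 and 2, for Cd79a or Cd3e alone 4 and 4, and for both 0 and 1. In cells with at least 2 Cd79a UMIs and fewer than 2 of Acod1, B cells that should lack the gene, there were 3 Acod1 UMIs in 716 control cells (median depth 1197 UMIs) and 2 in 199 NASH cells (1169). By definition none of these cells could hold more than 1 Acod1 UMI, so this background is low in part by construction. The median depth of the Acod1 cells was 1621 and 1999 UMIs.

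Against all other kept cells, 315 of 7671 measured genes (4.11%) were higher past 2-fold in both libraries and 1916 (25%) lower. The genes that led were chosen by the same cells and are a description. After Acod1 itself (log2 ratios of 7.78 in control and 7.52 in NASH), they were Clec4e (4.83 and 4.98, in 113 of 148 cells), the interleukin-36 gamma gene, listed as Il1f9 (4.65 and 5.66, 109 cells), Ptgs2 (4.98 and 4.59, 68 cells), Clec5a (4.50 and 4.63), Chil1 (4.37 and 5.76), Clec4d (4.28 and 4.73, 134 cells), Cxcl2 (4.39 and 4.22, 104 cells), Il1r2 (4.04 and 4.47), Bst1, Ptafr (3.99 and 3.82, 107 cells), the niacin receptor gene Hcar2 (4.31 and 3.80) and Cass4. Clec4d and Clec4e encode C-type lectins that myeloid cells use to sense fungi, mycobacteria and dead cells. The other kept cells were of all kinds, so these ratios do not by themselves set the Acod1 cells apart from other neutrophils. Ratios were smaller against cells with a UMI of Cxcr2 and of Csf3r and fewer than 2 of Acod1. There Clec4e had log2 ratios of 0.78 in control and 1.31 in NASH, Clec5a 0.85 and 1.17, and Cxcl2 0.31 and 0.35. Ptafr had 0.49 and 1.17, and Il1r2 had -0.12 and -1.42.

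The Acod1 cells were not of 1 kind. UMIs were summed in each cell over 17 neutrophil marker genes, such as Csf3r, Cxcr2 and Mmp8, and over 16 mononuclear phagocyte marker genes, such as Csf1r, C1qa and Ccr2. In the control library 85 of 89 cells held more neutrophil than mononuclear phagocyte UMIs (95.5%, 88.9 to 98.8) and 4 held fewer. In the NASH library 32 of 59 held more (54.2%, 40.8 to 67.3), 26 held fewer (44.1%, 31.2 to 57.6) and 1 held as many. The cells with more neutrophil UMIs are called neutrophil-marker Acod1 cells below and those with fewer mononuclear Acod1 cells, and the cell with equal sums is in neither class. No control cell and 7 NASH cells lay within 5 UMIs of the cut, and those with a class stayed in it in all comparisons below. The lowest neutrophil sum of a neutrophil-marker cell was 14 UMIs in control and 3 in NASH. The name inflammatory myeloid cells covers both classes, and 5 listed neutrophil genes that stand late in the alphabet were not analysed here.

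**Figure D1:**
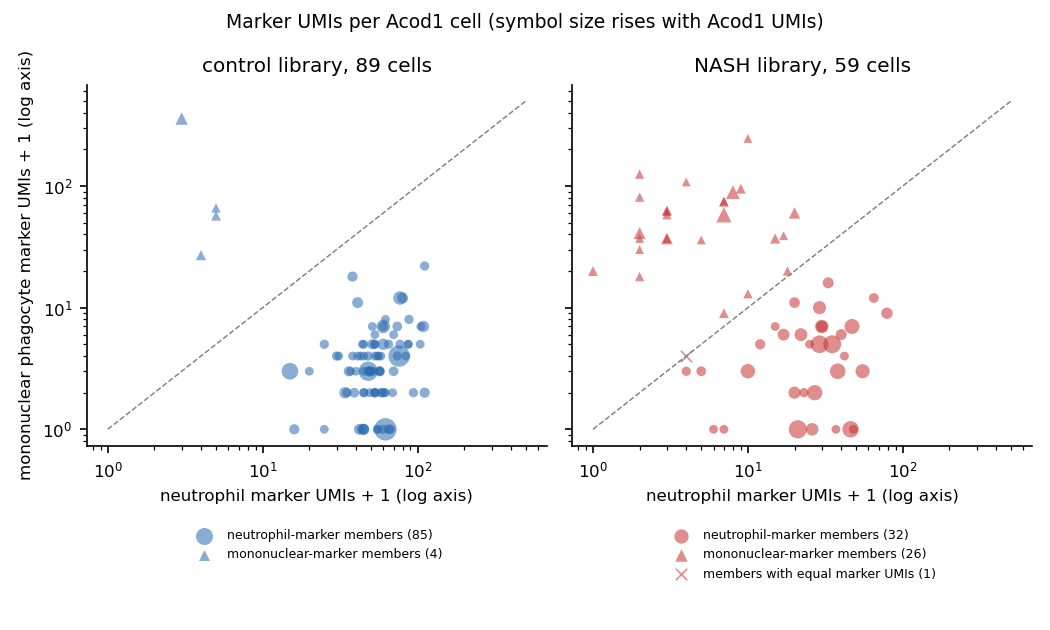
Each symbol is an Acod1 cell of the control (left, blue) or NASH (right, red) library, placed by its neutrophil marker UMIs (x) and its mononuclear phagocyte marker UMIs (y), both with 1 added and on log axes; circles are neutrophil-marker cells, triangles mononuclear cells, a cross the cell with equal sums, and size rises with Acod1 UMIs. In the control library 85 of 89 cells lie below the dashed line of equal sums, and in the NASH library 32 of 59 do.

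As a share of all kept cells, neutrophil-marker Acod1 cells went from 2.02% (1.62 to 2.49) in the control to 0.863% (0.591 to 1.22) in the NASH library. Mononuclear Acod1 cells went the other way, from 0.0950% (0.0259 to 0.243) to 0.701% (0.458 to 1.03). Among neutrophils outside the Acod1 limit, taken as cells with a UMI of Cxcr2 and of Csf3r and fewer than 2 of Acod1 and called Cxcr2 cells, there were 347 (8.24%) and 64 (1.73%). Monocytes outside it, taken as cells with at least 3 UMIs of Ly6c2, Ccr2 and F13a1 together, none of Cxcr2 and fewer than 2 of Acod1, numbered 250 (5.94%) and 318 (8.57%). This set also held cells with markers of other kinds, since 78 of the 318 NASH cells held at least 10 UMIs of the dendritic cell genes. Kupffer cells by Clec4f and Cd5l numbered 459 and 483. All shares of a library sum to 1 whole, so a share moves when any other cell kind does.

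Markers of other cell kinds were low in the Acod1 cells, with exceptions. The 8 B cell genes summed to 8 control and 2 NASH UMIs and the 8 T cell genes to 3 and 1. These lists include Cd79a and Cd3e, and the rule left out cells with any UMI of either gene. It also left out cells rich in Clec4f and Cd5l, the genes that chose the Kupffer cells compared here. Low sums of B cell, T cell and Kupffer cell genes are thus in part by construction and do not show purity by themselves. The 8 Kupffer cell genes read from the files were at 350 and 293 CPM (UMIs of a gene as a share of all UMIs of the cells summed, scaled to a common total), against 29678 and 26601 CPM in Kupffer cells. The 10 endothelial genes were at 700 CPM in control and 4241 CPM in NASH neutrophil-marker Acod1 cells, with 41 of 85 and 24 of 32 cells holding at least 1 UMI, and 2 and 3 cells held at least 10. Their part in the diet comparison was read by leaving those 5 cells out. Doublets were not removed: a doublet caller marked 57 control and only 3 NASH cells, none of them Acod1 cells, a rate at which it cannot be relied on.

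The 4 genes that name the cells did not move together between diets. In neutrophil-marker cells, Il1b, which encodes interleukin-1 beta (chr2:129364570-129371139), had a lowest, median and highest count per cell of 1, 22 and 56 UMIs in control and of 0, 4 and 45 in NASH cells. Its level went from 13679 to 6290 CPM, a log2 ratio of -1.12 (95% counting interval -1.29 to -0.96), and 28 of 32 NASH cells still held a UMI against 85 of 85 control cells. Csf3r, the receptor of the neutrophil growth factor G-CSF (chr4:126024550-126044440), had counts of 2, 11 and 24 in control and 0, 3.5 and 17 in NASH cells, with levels of 6734 and 2336 CPM and a log2 ratio of -1.52 (-1.80 to -1.26). The 2 libraries overlapped in range for both genes, with the NASH medians far below the control ones.

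Cxcl2 (chr5:90903871-90905938), a ligand of Cxcr2, went the other way. Its lowest, median and highest counts were 0, 7 and 78 UMIs in control and 0, 18.5 and 99 in NASH neutrophil-marker cells, and 58 of 85 and 31 of 32 cells held a UMI. Its level went from 8212 to 13280 CPM, a log2 ratio of 0.69 (0.56 to 0.83). With each cell thinned to 1000 UMIs, the shares were 63.9% and 93.5%. Acod1, on which the cells were chosen, was at 3094 and 6200 CPM, with medians of 3 and 8 UMIs. Summed over all Acod1 cells instead, Cxcl2 had a log2 ratio of -0.56, Acod1 of -0.17 and Il1b of -2.37, and that NASH sum held 26 mononuclear cells with Cxcl2 at 1344, Acod1 at 906 and Il1b at 650 CPM.

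**Figure D2:**
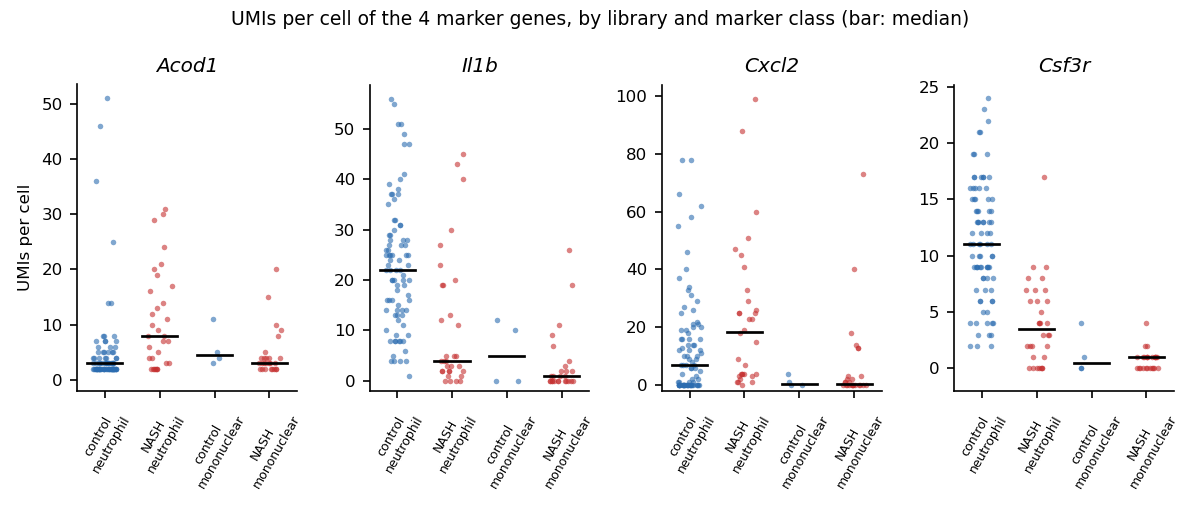
UMIs per cell (y, linear) of Acod1, Il1b, Cxcl2 and Csf3r in Acod1 cells, by library (blue control, red NASH) and marker class; each point is a cell and the black bar is the median. In neutrophil-marker cells the medians of Il1b were 22 and 4 UMIs and those of Cxcl2 were 7 and 18.5.

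Over all genes, 728 had at least 50 UMIs in the neutrophil-marker cells of both libraries together. Of these, 102 (14%) were at least 2-fold higher and 175 (24%) at least 2-fold lower in the NASH library, counted by size with no test, and the median log2 ratio was -0.26. Scaling to that median gave 148 higher and 130 lower, so the split between the directions depends on the scaling, and the ratios below are read against -0.26. The split and the median also depend on the minimum, since the cells held 142847 control and 55648 NASH UMIs. A gene read only in control cells thus passed at a lower CPM than a gene read only in NASH cells. The part of this was not tested. Counts over gene lists between diets in these cells stand beside the 14% higher and 24% lower of all 728 genes, and were not tested. Over all 148 cells the comparison held 1329 genes, of which 297 (22.3%) were higher and 327 (24.6%) lower in NASH, and it mixes the change in class with changes within a class. In Cxcr2 cells, 51 of 1879 genes (2.71%) were higher and 95 (5.06%) lower, with 347 and 64 cells in the sums. Cxcr2 cells had to hold a UMI of Cxcr2 and of Csf3r, and neutrophil-marker cells did not. Cxcr2 was read in 83 of 85 control and 18 of 32 NASH neutrophil-marker cells and Csf3r in 85 of 85 and 25 of 32. The ratios in Cxcr2 cells given below are thus not of a like choice of cells, and the part of this was not tested.

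Chemokines and cytokines that recruit or feed myeloid cells were among the genes higher in NASH neutrophil-marker cells. Ccl4, a chemokine gene of activated myeloid cells, was at 413 CPM in 6 of 85 control cells and at 6182 CPM in 21 of 32 NASH cells, a log2 ratio of 3.89 (3.50 to 4.33). A single cell held 54.2% of its control UMIs, and without the top cell of each library the ratio was 4.70. Ccl3, a close relative of Ccl4, went from 644 to 4852 CPM (16 of 85 and 24 of 32 cells, log2 ratio 2.91). In Cxcr2 cells the ratios were smaller, 1.44 for Ccl4 and 1.52 for Ccl3. Csf1, the growth factor of macrophages, went from 707 to 5337 CPM (27 of 85 and 27 of 32 cells, 2.91), with 1.79 in Cxcr2 cells. Of 5 measured chemokines 2 were higher and 1 lower, the lower one being Ccl6 at -1.38, and Cxcl10 stood at -0.66 with 56.3% of its NASH UMIs in 1 cell.

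The receptor antagonist of interleukin-1 and the cytokine moved in opposite directions. Il1rn, which encodes the antagonist, went from 973 CPM (49 of 85 cells) to 6379 CPM (30 of 32 cells), a log2 ratio of 2.71 (2.43 to 3.01), with 0.54 in Cxcr2 cells. In thinned cells it was found in 42.2% of control and 83.9% of NASH cells. Of the 6 measured genes of interleukin-1 and the inflammasome, Il1rn was higher, Il1b and Il18rap (-1.14) were lower, and the sensor gene Nlrp3 (-0.14), the caspase gene Casp4 (-0.22) and the decoy receptor gene Il1r2 (0.00) stayed within 2-fold.

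On the list of NF-kappaB feedback and survival genes, 4 of 11 measured were higher and none was lower past 2-fold. Il1b, another gene that NF-kappaB induces, is not on that list and was lower. The higher ones were Icam1, an adhesion molecule (448 to 1563 CPM, 11 of 85 and 20 of 32 cells, log2 ratio 1.80), the cell death inhibitors Cflar (1.72) and Birc3 (1.40), and the inhibitor of NF-kappaB gene Nfkbid (1.47). Nfkbia, the prototype feedback inhibitor, was at 3892 and 7008 CPM, a ratio of 0.85, while it was at -0.89 in Cxcr2 cells. The median over the list was 0.60, against -0.26 over all measured genes. The checkpoint ligand gene Cd274 (PD-L1) went from 378 CPM in 14 of 85 cells to 1366 CPM in 21 of 32 cells, a log2 ratio of 1.85. It was the 1 higher gene of 7 measured inhibitory and costimulatory surface proteins, of which Pirb (-2.69) and Cd300ld (-2.02) were lower.

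Sensors of microbes and dying cells held genes of both directions, beside 14% higher and 24% lower over all 728 genes. Of 12 measured, 4 were higher: the signalling kinase gene Irak2 (112 to 1042 CPM, 10 of 85 and 21 of 32 cells, log2 ratio 3.19), the C-type lectin gene Clec4n, which encodes Dectin-2 (168 to 1330 CPM, 12 of 85 and 19 of 32 cells, 2.96), the inhibitory antibody receptor gene Fcgr2b (2.04) and the endotoxin co-receptor gene Cd14 (1.66). The adaptor gene Myd88 (-1.58) and Bst1 (-1.22) were lower. Among chemoattractant receptors, Ccrl2 (1.28) and the platelet-activating factor receptor gene Ptafr (1.25) were higher, and Cxcr2 (-1.90) and Ccr1 (-1.40) were lower. Cxcr2 was read in 83 of 85 control and 18 of 32 NASH cells, at 6790 and 1815 CPM.

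Genes of the mature neutrophil's granules and lipid mediators were lower in NASH neutrophil-marker cells. Of 10 measured granule genes none was higher and 6 were lower, with a median of -1.39. The collagenase gene Mmp8 went from 3101 to 485 CPM (58 of 85 and 9 of 32 cells, log2 ratio -2.65), the iron-binding protein gene Lcn2 had -1.99, haptoglobin (Hp) -1.95 and the gelatinase gene Mmp9 -1.39. In Cxcr2 cells Mmp8 and Lcn2 had ratios of 0.93 and 0.91. Mmp8 and Mmp9, like Csf3r, Cxcr2 and Lrg1, are on the neutrophil list that set the class of neutrophil-marker cells. The lowest neutrophil sum of a cell in that class was 14 UMIs in control and 3 in NASH, and the part of this was not tested. Of 4 measured genes of prostaglandin and leukotriene synthesis, 3 were lower, among them Alox5 (-1.75) and its activating protein gene Alox5ap (-1.66), whose products make leukotrienes, and the prostaglandin synthase gene Ptgs2 was at 0.26. Ifitm1, an antiviral membrane protein gene, went from 8954 to 1492 CPM (-2.58), by nearly as much as in Cxcr2 cells (-2.36). Over the same cells the sum of the neutrophil marker genes went from 32958 to 16371 CPM, with medians of 52 and 27 UMIs per cell. In Cxcr2 cells it went from 34338 to 43598 CPM while the median per cell went from 46 to 35.5 UMIs, and 1 NASH cell held 871 of 3971 UMIs. Its part in these ratios was not tested.

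Immediate early genes, which respond to stimuli and to tissue dissociation, did not share a direction. Fos was at 14519 CPM in control and 3199 CPM in NASH neutrophil-marker cells, with medians of 20 and 2.5 UMIs and a log2 ratio of -2.18 (-2.41 to -1.96), and at -0.13 in Cxcr2 cells. Of 17 measured, 6 were lower, Fosb (-1.71) and Btg2 (-1.64) among them, and 3 were higher, the phosphatase gene Dusp2 (1.61), the nuclear receptor gene Nr4a1 (1.60) and Maff (1.58). Among 15 measured interferon-stimulated genes 2 were higher, Ifi47 (1.28) and Isg15 (1.03), and Ifitm1 was lower, with a list median of 0.60. Over all 728 genes 14% were higher and 24% lower, and these counts of few genes are a description. Glycolysis genes held 0 higher and 1 lower, Gpi1 (-1.63), of 7.

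The genes with the largest ratios are given singly, since no list joined them. They were picked by the ratio itself, among genes that reached the minimum of UMIs over both libraries together. A gene with few control UMIs, such as Gpnmb with 0 against 66 in NASH cells, reaches that minimum only when high in NASH cells. Its ratio is thus large in part by construction, and the part of this was not tested. The same holds at the low end for genes with few NASH UMIs. Prdx1, a peroxide-reducing enzyme, went from 35.0 CPM in 5 of 85 cells to 1132 CPM in 12 of 32 cells, a log2 ratio of 4.89 (3.72 to 6.69). M6pr, the receptor that carries enzymes to lysosomes, went from 49.0 to 1168 CPM (6 of 85 and 17 of 32 cells, 4.49) and was at -0.02 in Cxcr2 cells. The lysosomal acid lipase gene Lipa (147 to 1222 CPM, 15 of 85 and 20 of 32 cells, 3.03), the cathepsin inhibitor gene Cstb (350 to 2839 CPM, 26 of 85 and 22 of 32 cells, 3.01) and the tetraspanin gene Cd9 (560 to 3468 CPM, 49 of 85 and 30 of 32 cells, 2.63) followed. Gpnmb, a gene of lipid-laden macrophages, was at 0 UMIs in 85 control cells, which allows a share of up to 3.53% of cells (3 cells of 85), and at 1186 CPM in NASH cells, at least 56.5-fold higher. It was found in 3 of 32 cells, with 71.2% of its UMIs in 1 of them, and another of them held only 3 neutrophil against 2 mononuclear phagocyte UMIs. The 10 genes of lipid-associated macrophages read from the files, which include Gpnmb and Cd9, summed to 2646 CPM in control (median 4 UMIs per cell) and 8105 CPM in NASH cells (median 10, at most 67), and their part in these ratios was not tested. In Cxcr2 cells the sums were 2635 and 3404 CPM. Mapk6 (3.35) and Arid5b (3.44) completed the genes with high ratios.

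A pair of the high ratios moved with the endothelial genes. Igfbp7, known from endothelial cells, had a log2 ratio of 3.98 with 45.4% of its NASH UMIs in 1 cell, and of 1.50 without the 5 cells with at least 10 endothelial UMIs. Cyp26b1, which degrades retinoic acid, had 4.80 with 74.6% in 1 cell, and 3.19 without them. Prdx1 (5.26), M6pr (4.90), Lipa (3.22), Cstb (3.46), Ccl4 (4.14), Ccl3 (3.37) and Il1rn (3.05) were as high or higher without these cells.

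At the other end, Igkc, the antibody kappa light chain gene, went from 1463 to 71.9 CPM (75 of 85 and 4 of 32 cells, log2 ratio -4.18). Neutrophils do not make antibody, and Cxcr2 cells had 294 of 347 and 18 of 64 cells with a UMI and a ratio of -2.56, while plasma cell genes summed to 511 and 89.9 CPM in neutrophil-marker cells; their part was not tested. Lrg1 (2562 to 198 CPM, 74 of 85 and 8 of 32 cells, -3.63), a glycoprotein stored in neutrophil granules, the guanine deaminase gene Gda (5026 to 629 CPM, 84 of 85 and 12 of 32 cells, -2.98) and Cytip (-3.19) were lower. Arid3a was at 0 UMIs in the 32 NASH cells, which allows a share of up to 9.38%, and in 34 of 85 control cells, at least 6.88-fold lower. Gda and Lrg1 were lower in Cxcr2 cells too, with ratios of -0.85 and -1.27, and Arid3a was not (0.14). The interleukin-17 receptor gene Il17ra, at -2.56 in 7 of 32 cells, was the lowest of 9 measured cytokine receptors.

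**Figure D3:**
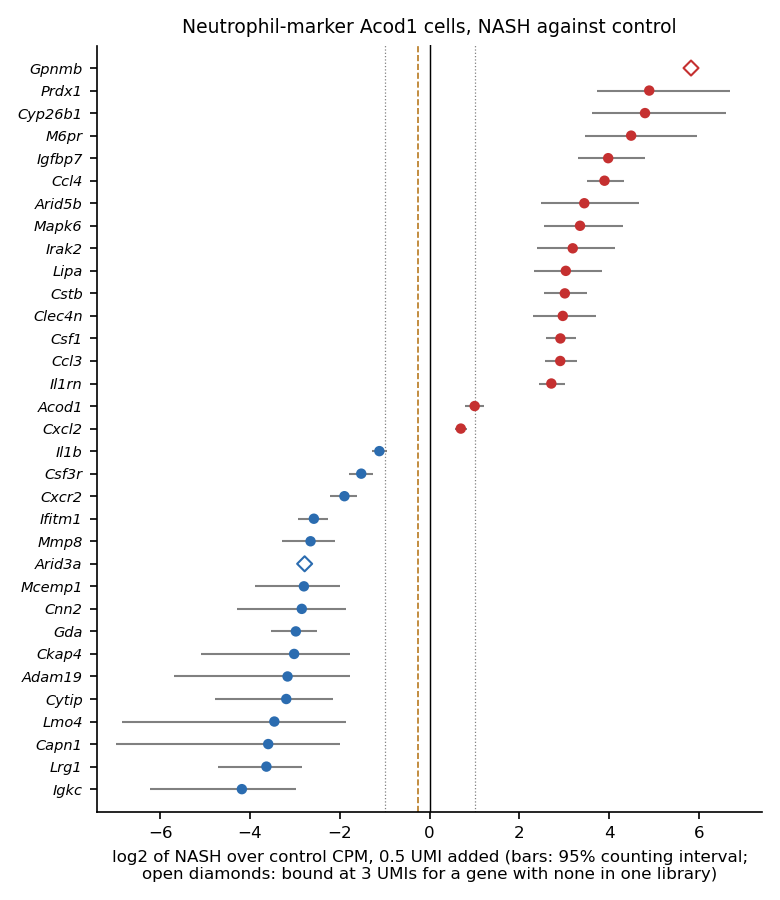
log2 of the NASH over the control level in neutrophil-marker Acod1 cells (x, 0.5 UMI added) for the named genes; points are ratios, grey bars 95% counting intervals, open diamonds bounds at 3 UMIs for genes with none in 1 library, dotted lines 2-fold and the dashed line the median of -0.26 over 728 genes. Prdx1, M6pr, Ccl4 and Il1rn lie to the right and Igkc, Lrg1, Gda and Mmp8 to the left.

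Against Cxcr2 cells of the same library, all Acod1 cells together were higher past 2-fold in both libraries for 47 of 993 measured genes (4.73%) and lower for 5 (0.504%), and these counts include the mononuclear cells. The neutrophil-marker Acod1 cells were higher in both libraries for 15 of 544 measured genes (2.76%) and lower for 5 (0.919%). The Cxcr2 cells had to hold a Cxcr2 and a Csf3r UMI and fewer than 2 Acod1 UMIs, so those 3 genes are not read here, and Acod1 is 1 of the 15. Known targets of NF-kappaB or interferon were among the others. Cxcl10, a chemokine that attracts T cells, was higher by log2 ratios of 5.98 in control and 4.70 in NASH, Icam1 by 3.05 and 3.91, Cd274 by 2.76 and 5.16, the guanosine triphosphatase gene Ifi47 by 3.20 and 3.31, Gbp2 by 2.39 and 2.10 and Isg15 by 1.79 and 1.29. Clec4n (1.71 and 2.44), Marcksl1 (1.43 and 2.60) and the kinase gene Mapkapk2 (1.29 and 2.59) followed, with Ccl4 (1.11 and 3.57), Csf1 (1.17 and 2.29), Nampt (1.21 and 2.50), Ptgs2 (1.09 and 1.10) and Cd14 (1.04 and 2.09). Beside 4 granule genes described below, the gene lower in both libraries was C5ar2, a receptor of complement fragment C5a (-1.05 and -1.15). Of 8 measured interferon-stimulated genes 4 were higher in both libraries and none lower.

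In the control library these differences rested on a minority of cells. Cxcl10 was found in 10 of 85 control and 11 of 32 NASH cells, with 31.4% of the control UMIs in 1 cell. At 1000 UMIs per cell it was in 8.43% and 29.0% of neutrophil-marker cells, in 2.45% and 0% of Cxcr2 cells and in 1.10% and 2.90% of B cells. At least 3 of the 5 genes Cxcl10, Icam1, Cd274, Ifi47 and Gbp2 were found together in 10 of 85 control cells (11.8%) and 12 of 32 NASH cells (37.5%), against 3 of 347 (0.865%) and 0 of 64 Cxcr2 cells, the last allowing a share of up to 4.69%. The 5 genes were picked after their values were seen, from those higher in both libraries.

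**Figure D4:**
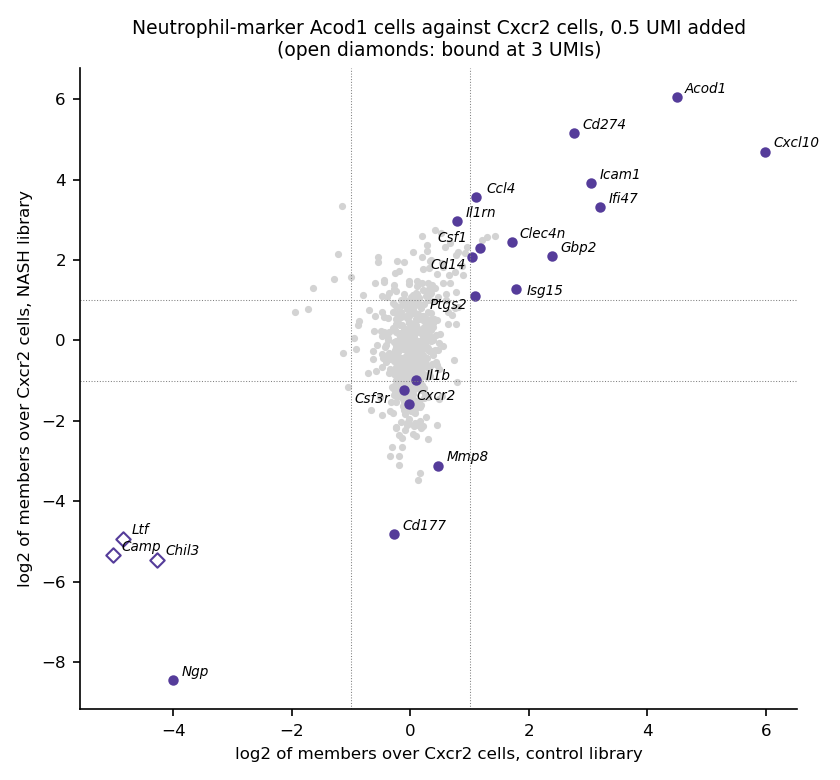
log2 of the level in neutrophil-marker Acod1 cells over Cxcr2 cells in the control (x) and the NASH library (y), 0.5 UMI added; grey points are measured genes, purple points named ones, open diamonds genes placed at the bound of 3 UMIs where a library had none, and dotted lines 2-fold. Cxcl10, Icam1, Cd274, Ifi47 and Gbp2 lie above 2-fold in both libraries.

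The distance to Cxcr2 cells was larger in the NASH library for several genes, a difference that was not tested. By definition every Cxcr2 cell held a UMI of Cxcr2 and of Csf3r, whereas 18 and 25 of 32 NASH neutrophil-marker cells did, and the part of that was not tested. Il1b was within 2-fold in both libraries (0.09 and -0.98), Cxcl2 was higher by 0.55 and 1.84, and Nfkbia by 0.58 and 2.33. Granule genes of neutrophil precursors were lower in both: Camp was at 0 UMIs in both libraries, Ltf and Chil3 were at 0 in control cells with 4 and 1 UMIs in NASH cells, and Ngp was at 168 CPM in control with 1 UMI in NASH cells. In Cxcr2 cells these genes were carried by few cells (Camp in 6 of 347 and 4 of 64, Ltf in 6 and 6, Chil3 in 7 and 6, Ngp in 21 and 6), and 0 of 85 cells allows a share of up to 3.53%. At 1000 UMIs per cell Ngp was in 9 of 83 control neutrophil-marker cells against 15 of 326 Cxcr2 cells, and in 1 of 31 against 6 of 57 in NASH. The lower sums of these 4 genes are thus not shown to be lower shares of cells.

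Within the control library, cells with at least 10 Acod1 UMIs held Cxcl10, Icam1 and Cd274 most often. In control neutrophil-marker cells, Cxcl10 was found in 1 of 56 cells with 2 or 3 Acod1 UMIs, 4 of 23 with 4 to 9 and 5 of 6 with at least 10. Icam1 was found in 3, 4 and 4 of those cells and Cd274 in 6, 4 and 4. In NASH cells Icam1 was in 4 of 9, 3 of 9 and 13 of 14 cells and Cd274 in 6, 4 and 11, while Cxcl10 (4, 3 and 4) showed no such order and Ccl4 was in 6, 3 and 12. The median of Il1b over the 3 control bins was 22, 25 and 14.5 UMIs and that of Csf3r 11.5, 11 and 6, so the low values stood in the bin of 6 cells. The median depth of the control bins was 1557.5, 1822 and 2040.5 UMIs and that of the NASH bins 1379, 1745 and 1516.5, and its part was not tested. The bins with 6, 9 and 9 cells are thin, the bins are defined by the rule's gene and no test was made.

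**Figure D5:**
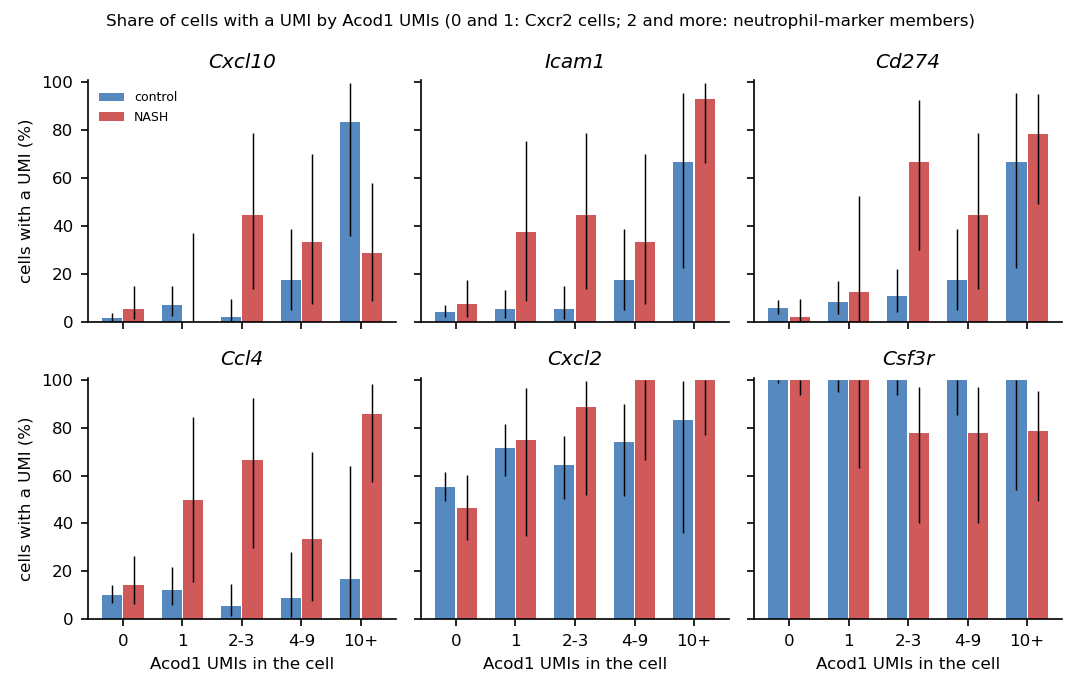
Percent of cells with a UMI (y, bars from 0, error bars exact binomial 95% intervals) of 6 genes by the Acod1 UMIs of the cell (x), in control (blue) and NASH (red); 0 and 1 are Cxcr2 cells, which hold a Csf3r UMI by definition, and the higher bins neutrophil-marker Acod1 cells. Cxcl10 was in 1 of 56, 4 of 23 and 5 of 6 control cells of the 3 higher bins, and Icam1 in 13 of 14 NASH cells of the last.

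The 26 mononuclear Acod1 cells of the NASH library held monocyte genes, of which Ly6c2, Ccr2, F13a1 and Ms4a6c helped to set the class. The 8 classical monocyte genes read from the files summed to 7836 CPM, against 8032 CPM in monocytes of that library with fewer than 2 Acod1 UMIs. Those monocytes were chosen by Ly6c2, Ccr2 and F13a1, so both sums rest in part on genes that chose the cells and are a description. The 10 genes of lipid-associated macrophages summed to 22172 CPM, with at least 10 UMIs in 25 of 26 cells, against 7670 CPM in the monocytes. Ccr2, the receptor that brings monocytes out of the bone marrow, was at 1242 CPM in 16 of 26 cells and at 0 in the 32 neutrophil-marker NASH cells, and Ms4a6c was in 20 of 26 cells. The Kupffer genes were at 226 CPM, and the rule kept cells rich in Clec4f and Cd5l out. Of 10 dendritic cell genes read from the files, 5 were found, with 123 UMIs in all (898 CPM, at most 23 in a cell and at least 10 in 4 cells), against 1516 CPM in the monocytes, and Flt3, Ccr7, Cd209a, Mgl2 and Kmo were at 0 of 26 cells, which allows a share of up to 11.5% for each. Of 678 genes measured in both classes in NASH, 191 (28.2%) were higher and 167 (24.6%) lower in mononuclear cells. All 5 measured MHC class II presentation genes were higher, with a median of 3.60: Cd74, the invariant chain, was at 9070 against 970 CPM (26 of 26 and 18 of 32 cells, log2 ratio 3.21) and H2-Ab1 at 6529 against 395 CPM (4.01). Lpl, which encodes lipoprotein lipase, was at 4009 against 35.9 CPM (21 of 26 and 2 of 32 cells, 6.48). Of 10 measured NF-kappaB feedback and survival genes 9 were lower, and of 16 immediate early genes 13 were lower and 1 higher.

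Against monocytes of the NASH library with fewer than 2 Acod1 UMIs (15 in all over 318 cells), 233 of 4369 genes (5.33%) were higher and 775 (17.7%) lower in mononuclear Acod1 cells, with a median of -0.21. These monocytes were a mixed set. At least 10 UMIs of the dendritic cell, NK cell and cycling cell genes were held by 78, 18 and 16 of the 318, against 4, 0 and 0 of the 26 Acod1 cells. Flt3, Cd209a and Pclaf were among the lowest ratios. The part of this mix in the ratios was not tested. Glycolysis and hypoxia genes held 13 of 22 higher and none lower, with a median of 1.05; the phosphoglycerate kinase gene Pgk1 was at 1395 CPM in 26 of 26 cells, a log2 ratio of 1.39 (1.15 to 1.61). Antioxidant genes held 7 of 20 higher and none lower, among them Prdx1 (4878 CPM, 24 of 26 cells, 1.98), the heme oxygenase gene Hmox1 (1.80) and the glutathione synthesis gene Gclm (2.34). NF-kappaB feedback and survival genes held 7 of 21 higher and none lower, the costimulatory receptor gene Cd40 (2.70) being in 10 of 26 cells. Il1rn was at 2454 CPM in 23 of 26 cells (2.21). MHC class II genes held 1 higher and 3 lower of 10, with H2-Ab1 at -0.86 and Cd74 at -0.77, and Apoe was at -1.54.

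Lipid handling genes of the mononuclear Acod1 cells differed from those of monocytes in part. The fatty acid binding protein gene Fabp5 was at 2089 CPM in 10 of 26 cells (log2 ratio 2.71), Gpnmb at 2498 CPM in 12 of 26 (1.85), Lpl at a ratio of 1.10 and the scavenger receptor gene Cd36 at 0.63. The T cell attracting chemokine gene Cxcl9 was in 12 of 26 cells (2.60), with 41.4% of its UMIs in 1 cell. The lectin gene Clec4e, a sensor of mycobacterial glycolipid and dead cells, had a ratio of 2.82. Several high ratios rested on single cells: 97.8% of the UMIs of the nitric oxide synthase gene Nos2 and 63.5% of those of the activin subunit gene Inhba came from 1 cell each, as did 50.7% of those of the protease gene Ctsk.

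The 4 mononuclear Acod1 cells of the control library were too few to describe beyond their counts. They held 2973 to 13002 UMIs and 23 Acod1 UMIs, and the endothelial genes reached 188 UMIs in 1 cell, so their class was not compared between diets.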

How the data were processed

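Single-cell RNA was captured from pooled livers on BD Rhapsody cartridges (the labels also name another platform in their description field), and per the authors' methods the reads were processed with the BD Rhapsody whole transcriptome pipeline, and GRCm38 is named in the submitters' processing notes. The authors deposited 1 table of raw UMI counts per library, with cells in rows, none normalized. The control table has a header with 16383 gene columns in alphabetical order, ending at Rad54l2, and the NASH table has none. Its columns were named by the control order: the correlation of log column totals was 0.973 in that order and 0.473 with a shift of 1 column. Genes later in the alphabet are not analysed here, and 12 columns with date-like names were left out. The labels share 21 cell names between libraries, 2 of them in Acod1 cells.

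From the counts, UMIs were summed over cells and given as CPM. Ratios had 0.5 UMI added and required at least 50 UMIs over both groups, with exact binomial and Poisson 95% intervals. With 1 library per diet no p-value was computed. Depth was 11452972 control and 9326723 NASH UMIs, with medians of 1683 and 1654 UMIs per kept cell. A gene at 0 was given a bound at 3 UMIs. A share at 0 cells was given a bound at 3 cells, which is lower than the exact binomial upper limit (4.25% for 0 of 85). For shares, 1000 UMIs were also drawn from each cell and cells with fewer dropped (2 of 85 and 1 of 32 neutrophil-marker cells, 21 of 347 and 7 of 64 Cxcr2 cells, 171 of 716 and 61 of 199 B cells). Doublets were sought with Scrublet in scanpy 1.11.5. Sums and ratios were tested on simulated Poisson counts of the summed cells, drawn without differences between cells. Such counts cannot show how the intervals hold where single cells carry much of a gene. Python 3.11.15, numpy 2.4.6, scipy 1.17.1, pandas 2.3.3 and matplotlib 3.10.9 were used.

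The cells, marker lists and gene lists were chosen with earlier results of these data known, and support nothing by themselves. Genes named were the 4 markers and the rule's genes, the 12 highest and 12 lowest ratios between diets, the 15 highest against all other cells, the 10 highest and lowest against Cxcr2 cells, and up to 4 of each list with any whose role is described. The same rule was applied within neutrophil-marker and within mononuclear cells after the values were seen. Several features of uncertain mapping, such as AC139671.1 and Gm5483, overlap or resemble other genes and are not described.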

Additional observations from a re-analysis of the deposited data

Results flagged for a closer look

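The shares of the 2 classes of Acod1 cells went opposite ways between the libraries. Neutrophil-marker Acod1 cells were 2.02% of control and 0.863% of NASH kept cells, a log2 ratio of -1.23, and mononuclear Acod1 cells were 0.0950% and 0.701%, a log2 ratio of 2.88. The difference between the classes was not tested, since each diet is 1 library.

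In 2 genes the NASH to control ratio had opposite signs past 2-fold in neutrophil-marker Acod1 cells and in Cxcr2 cells, also untested. Fndc3b had 1.07 against -1.37, and Ly6c2, a monocyte surface gene, had -1.26 against 1.29. Ly6c2 was in 20 of 85 control and 4 of 32 NASH neutrophil-marker cells, with 26.6% of the control UMIs in 1 cell.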

How the results depend on the processing

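Of 59 recomputed shares and counts, 41 stayed within their limits and 18 moved. The limits were on size, so a change of direction was not counted apart. With at least 1 Acod1 UMI the shares were 4.13% and 2.80%, and with at least 3 they were 1.16% and 1.19%. Counts of genes past 2-fold between diets in all Acod1 cells (624) became 977 with at least 1 and 385 with at least 3 Acod1 UMIs, 1268 and 319 with a minimum of 20 and 100 UMIs per gene, 277 in neutrophil-marker cells and 281 there without cells rich in endothelial UMIs. In neutrophil-marker cells (277) they became 418, 638 and 137 with at least 1 Acod1 UMI and minimums of 20 and 100. Against Cxcr2 cells (52) they became 127 with a minimum of 20 and 20 in neutrophil-marker cells. Between the classes in NASH (358) they became 631, 959 and 174 with at least 1 Acod1 UMI and minimums of 20 and 100. Fewer genes reach a higher minimum by construction, and the cause of the other shifts was not tested. Of 504 recomputed gene ratios, 434 stayed, 69 moved and 1 reversed: Ctsk, higher in NASH over all Acod1 cells, was at -0.22 in neutrophil-marker cells, where 1 UMI was found in all. The gene minimum does not enter a gene's ratio and no Acod1 cell was marked as a doublet. Ratios under those alternatives could therefore only stay, and they are among the 434. A reversal was counted only for ratios past 2-fold, so the change of sign of Cxcl2 between all Acod1 cells and neutrophil-marker cells was not. No paired analysis was possible because each diet is 1 library, and no replicate could be left out. Alternatives that compare all Acod1 cells by class, leave out endothelial-rich cells or the top cell of each gene were added after seeing the data.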
